A study of Mus musculus with 10 samples.

Results

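Endothelial cells (ECs) line the vessels of the brain, and 37 genes that mark their identity were followed in the brains of Slc20a2-HO mice that had received FTY720 or placebo. The 37 genes were those of a named list found by gene symbol among the 54532 genes of the count table, and transporter, junction, leukocyte adhesion and VEGF-angiopoietin genes were kept apart from them. All 37 passed the filter on low counts and were tested, with at least 12 counts per mouse. They comprised 9 transcription factors, 13 surface proteins, 9 receptors or signaling proteins, 4 secreted proteins and 2 other intracellular or membrane proteins.

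Brains came from 10 mice, all homozygous for an Slc20a2 knockout allele bred on the tm1a(EUCOMM)Wtsi line. Slc20a2 encodes a phosphate transporter whose loss causes brain calcification. FTY720, a modulator of sphingosine-1-phosphate receptors that keeps lymphocytes in lymphoid organs, was injected intraperitoneally into 6 mice at 0.5 mg/kg in dimethyl sulfoxide, 3 times a week for 12 weeks from the age of 1.5 months, and 4 mice received dimethyl sulfoxide alone. The mice were perfused before part of each brain was taken for total RNA, so the libraries held the mixed cell types of the piece taken, and no wild-type or untreated mouse was included. The comparison addressed what FTY720 changes in the HO brain.

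Mouse names such as F1-622 and P3-904 hold a digit after the group letter, and its meaning is not given. The digit was 1 in F1-622, F1-624, F1-918 and P1-623 and 3 in the other 6 mice, 3 of each group. The first principal component of the libraries held 46.8% of the variance. Between the digits 5010 of 17665 genes tested had an adjusted p under 0.05 (edgeR, treatment as a covariate). The cerebellar granule cell gene Gabra6 was at 0.0588 to 0.239 CPM (a count scaled to library size and composition) in digit 1 mice and at 129.8 to 171.5 CPM in digit 3 mice. The mouse number began with 6 in 6 mice and with 9 in 4, and Xist, the transcript of the inactive X chromosome, was at most 4.12 CPM in the former and at least 463 CPM in the latter. Counts on genes ranged from 14772745 to 18303981 per mouse, and no pair of libraries was as alike as sampling noise allows (chi-square per degree of freedom of 16.1 or more over 5000 genes in 45 pairs). Slc20a2 itself, counted over the whole gene, had 89 to 294 counts per mouse and a log2 fold change of -0.24 (SE 0.25) for FTY720 over placebo, in a fit without the digit. It was at 6.30 to 9.42 CPM in digit 1 mice and at 11.5 to 16.9 CPM in digit 3 mice. The digit is uneven between the groups, and its part in this fold change was not tested. With no wild-type mouse and reads over the whole gene, these counts do not check the knockout. Littermates were used according to the study's methods, but which mice shared a litter or a day of processing is not given in the sources used here, so p-values measure the spread between these mice.

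Endothelial identity is set and kept by transcription factors of the ETS family (Erg, Fli1, Ets1) and the SoxF group (Sox7, Sox17, Sox18), which bind near genes such as Cdh5 and Pecam1. In the brain, Wnt/β-catenin signaling adds a layer of identity through factors such as Lef1, and target genes including Apcdd1 and Foxq1 mark the endothelium of the blood–brain barrier (BBB). Surface sialomucins, adhesion G protein-coupled receptors, BMP receptors and secreted proteins such as von Willebrand factor complete the profile. In RNA of whole tissue, more ECs and more RNA of a gene per EC cannot be told apart.

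Per gene length, the 37 genes spanned a wide range of levels. Itm2a, a type II membrane protein abundant in brain ECs, was the highest at 28.7 ± 4.94 FPKM (fragments per kilobase of gene, scaled to the library total; SD, n = 10). It was followed by Ly6c1 (16.6 ± 3.53 FPKM; SD, n = 10) and Ly6a (15.7 ± 4.35 FPKM; SD, n = 10), GPI-anchored surface proteins of the Ly6 family, of which Ly6a is Sca-1. Apcdd1, Cd34, Podxl, Eng, Egfl7, Esam and Sox18 followed between 4.09 and 6.41 FPKM. The adhesion molecule Pecam1 (CD31) stood at 2.78 ± 0.559 FPKM and Cdh5, the VE-cadherin of adherens junctions, at 2.31 ± 0.607 FPKM (SD, n = 10). Most transcription factors were low, with Erg at 0.975 ± 0.226 FPKM, Fli1 at 0.960 ± 0.271 FPKM and Sox7, the lowest of the 37, at 0.415 ± 0.110 FPKM (SD, n = 10). Among the transcription factors only Sox18, Ets1 and Sox17 had a mean above 1 FPKM. The defining endothelial markers Pecam1, Cdh5, Tie1 and Erg had counts in all 10 mice.

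Across mice the 37 genes did not move as 1 block. The mean deviation of the 37 genes from their 10-mouse means, in log2 CPM, was 0.0899 ± 0.127 (SD, n = 6) in FTY720 mice and -0.135 ± 0.0852 (SD, n = 4) in placebo mice. These means overlapped, since F1-624 (-0.0764) lay below P3-612 (-0.0305). Their summed level, which the abundant genes weigh on most, was 484.5 to 591 CPM in FTY720 mice and 424 to 478 CPM in placebo mice, without overlap. F3-609 had 31 of the 37 genes above their own median and F1-918 had 29, the most of all mice, while P3-904 had 7 and P3-907 had 9. F3-612 had 26. The other 3 FTY720 mice, F3-908 with 20, F1-622 with 15 and F1-624 with 13, lay within the range of the placebo mice, where P1-623 had 13 and P3-612 had 22. P3-904 was the lowest mouse for 10 genes and P1-623 for 9, and F1-918 was the highest for 10 and F3-609 for 9.

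**Figure D1:**
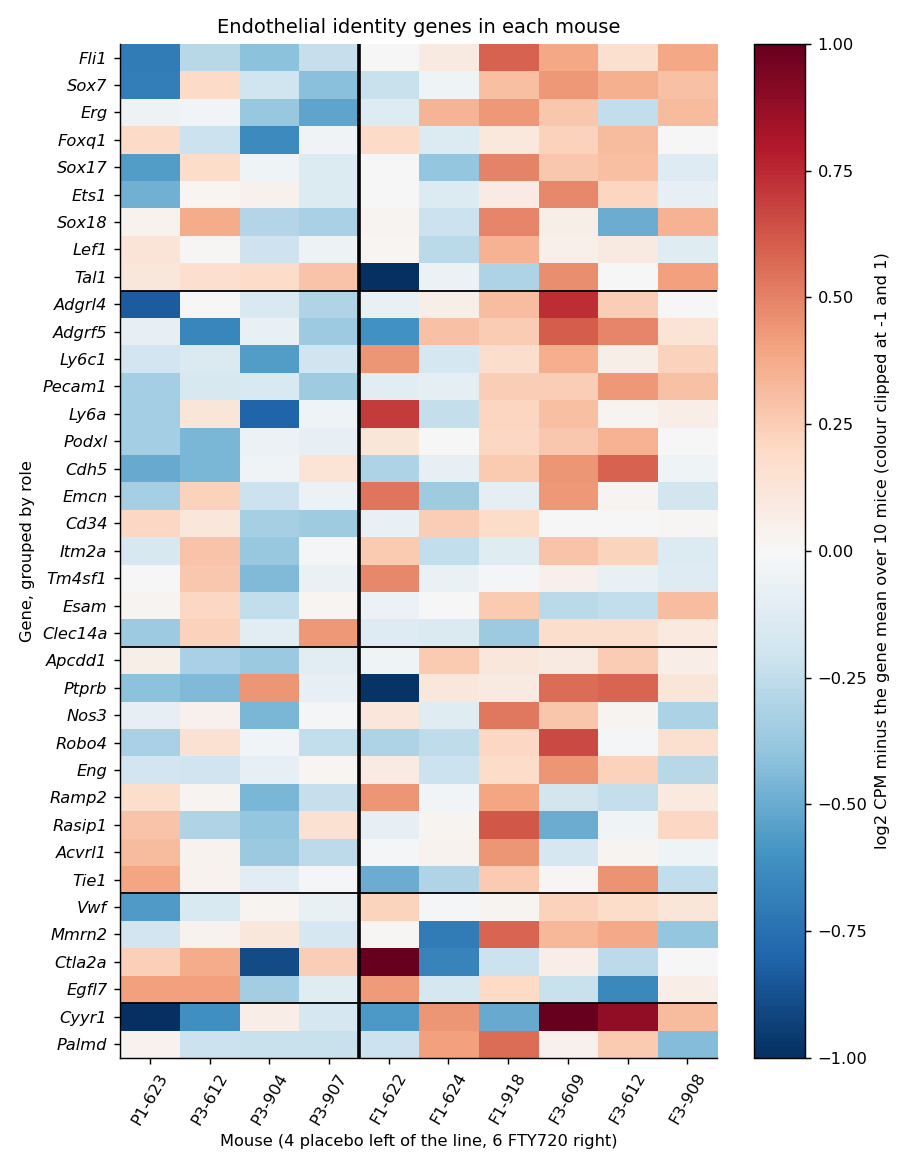
Each row is 1 of the 37 genes, grouped by role, and each column 1 mouse; colour is the log2 CPM minus the gene's mean over the 10 mice, clipped at -1 and 1. F3-609 and F1-918 are mostly red (31 and 29 genes above their median), P3-904 and P3-907 mostly blue (7 and 9), and F1-622 holds both strongly blue genes (Ptprb, Tal1) and red ones (Ctla2a, Ly6a).

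With FTY720, 9 of the 37 genes were higher than with placebo at an unadjusted p under 0.05, the threshold the study used, and 0 passed in the lower direction. The 9 were the ETS factor Fli1, the surface proteins Pecam1, Podxl, Ly6c1, Adgrl4 and Adgrf5, the Wnt inhibitor Apcdd1, the secreted Vwf and Cyyr1. Over all 17665 genes tested, 1.04% were higher and 1.57% were lower at that threshold. With the digit as a covariate 12 of the 37 genes were higher, beside 4.98% of all genes (880 higher and 1376 lower), and removal of GC content and gene length trends turned the split of all genes from 184 higher and 277 lower to 255 and 167. No gene of the genome had an adjusted p under 0.05 (smallest 0.99992, quasi-likelihood test of edgeR, Benjamini-Hochberg, with 461 genes at an unadjusted p under 0.05), so each of the 9 fails the correction. The median log2 fold change of the 37 genes was 0.23 (range -0.22 to 0.85), a fold of 1.17, against -0.00298 over all genes tested. It was above 0 for 33 of the 37 genes, where 49.4% of all genes were above 0, and the 4 below 0 were Tal1 (-0.22), Egfl7 (-0.15), Tie1 (-0.11) and Clec14a (-0.10). In 3 of the 37 genes (Fli1, Pecam1 and Podxl) all 6 FTY720 mice lay above all 4 placebo mice, which held for 0.436% of all genes.

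Within the 6 digit 3 mice, 8 of the same 9 genes (without Vwf) were higher with FTY720 at an unadjusted p under 0.05 and 0 were lower, where 2.78% of all genes were higher and 4.49% lower. These mice are among the 10 above, so the counts are not independent. The smallest adjusted p of any gene was 0.654 (edgeR), with 1283 genes at an unadjusted p under 0.05. With DESeq2 5 genes had an adjusted p under 0.05 there, 0 of them among the 37, and with no filter on low counts 134 did (edgeR), Adgrf5 and Cyyr1 among them. The median of the 37 genes was 0.21 (range -0.25 to 1.10) against -0.00489 over all genes, with 33 of 37 above 0 and 49.2% of all genes above 0. All 3 FTY720 mice lay above all 3 placebo mice in 10 of the 37 genes, against 6.42% of all genes. An exact permutation test of 3 mice against 3 cannot go below p = 0.1. Without F3-908 the count of higher genes was 13 and the median 0.36, where 3.06% of all genes were higher. Without P3-904 it was 9, where 9.52% of all genes were higher.

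**Figure D2:**
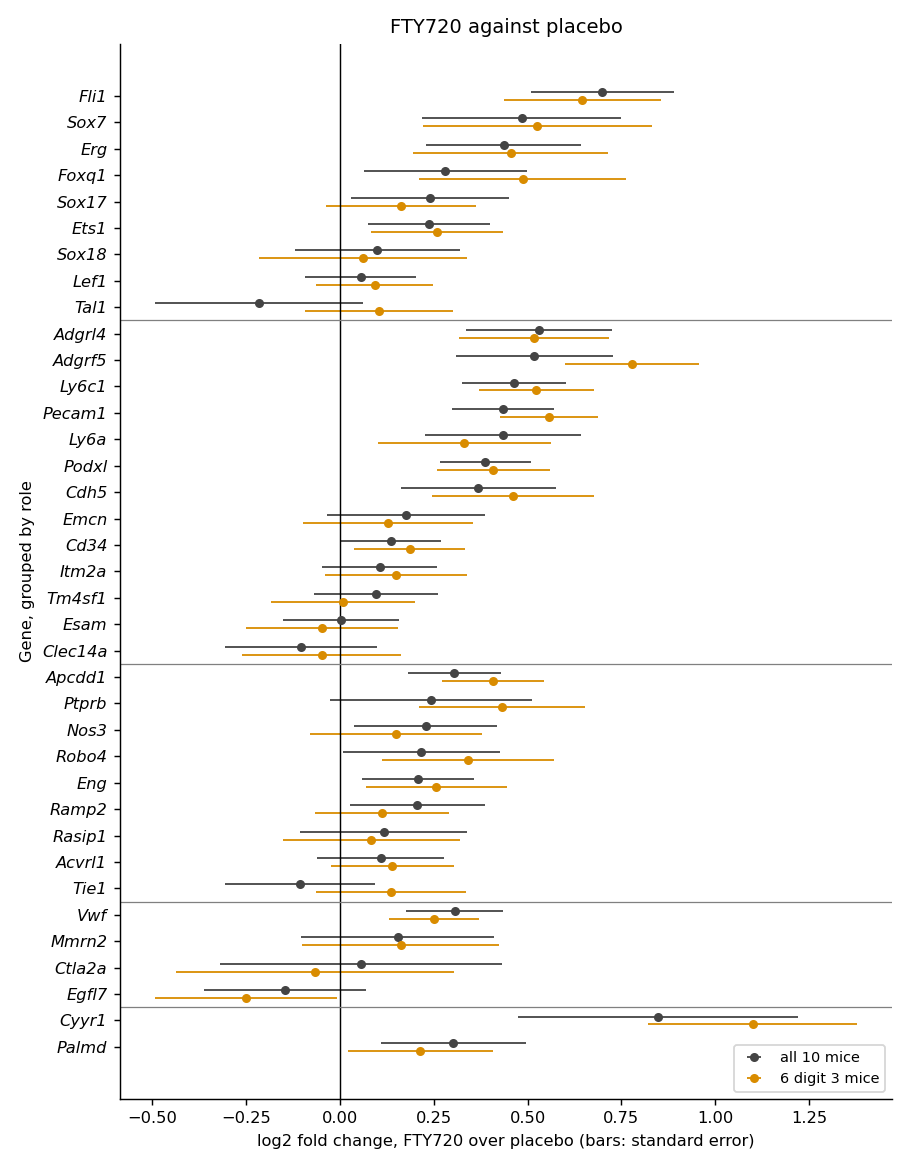
Points are log2 fold changes of FTY720 over placebo for each of the 37 genes, in all 10 mice (grey) and in the 6 digit 3 mice (orange), with bars of 1 standard error and lines between the role groups. Most points lie right of 0 in both sets (33 of 37 each), with Cyyr1 farthest right (0.85 and 1.10).

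Of the 9 transcription factors, 1 was higher with FTY720 and 8 did not pass, with a median log2 fold change of 0.24. Fli1, an ETS factor that acts with Erg in ECs, was at 3.26 to 4.97 CPM with a median of 3.97 in FTY720 mice and at 2.67, 1.96, 2.42 and 2.76 CPM in P3-612, P1-623, P3-904 and P3-907. No FTY720 mouse was as low as the highest placebo mouse. The means were 3.99 ± 0.641 CPM (SD, n = 6) and 2.45 ± 0.357 CPM (SD, n = 4), a log2 fold change of 0.70 (SE 0.19, unadjusted p = 0.00313), with an exact permutation p of 0.00476, the smallest that 210 splits can give, two-sided. These splits do not take account of the digit, which is uneven between the groups, here and in the exact tests below. Among digit 3 mice it was 0.65 (SE 0.21, unadjusted p = 0.0129). Fli1 has few counts, 30 to 83 per mouse, and its call held in each of the 11 other analysis settings and without any 1 of the 10 mice.

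Erg, the ETS factor most tied to endothelial identity, was at 2.79 to 4.55 CPM with a median of 4.11 with FTY720 and at 3.26, 3.20, 2.54 and 2.27 CPM in the same 4 placebo mice. Its groups overlapped, because F1-622 and F3-612 lay below the highest placebo mouse. The log2 fold change was 0.44 (SE 0.21, unadjusted p = 0.0548), which did not pass, and 0.45 (SE 0.26, unadjusted p = 0.113) in the digit 3 mice. Without F1-622, F3-612 or P3-612, Erg crossed the threshold (unadjusted p of 0.0336, 0.0277 and 0.0478, edgeR), and so it did in 4 of the 11 other settings: DESeq2 (0.0464), at least 10 counts in every mouse (0.0486), log2(FPKM + 1) (0.0430) and removal of GC content and gene length trends (0.0337). In the digit 3 mice it passed without F3-612 (unadjusted p = 0.0474). The third ETS factor, Ets1, had a log2 fold change of 0.24. Among the SoxF factors, which act in vessel growth and arterial fate, Sox7 had 0.48, Sox17 0.24 and Sox18 0.10. Foxq1, a forkhead factor enriched in brain ECs, had 0.28, and Lef1, the DNA-binding partner of β-catenin, 0.06. None of these passed in either comparison, although Sox7 and Foxq1 were higher in all 3 FTY720 than in all 3 placebo mice with the digit 3. Tal1, a factor of blood and endothelial development that some hindbrain and midbrain neurons also express, had -0.22 in all mice and 0.10 in the digit 3 mice.

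The surface proteins held 5 of the 9 genes that passed, out of 13 tested, with a median log2 fold change of 0.37. Pecam1, a homophilic adhesion molecule of EC contacts, was at 15.9 to 23.2 CPM with a median of 20.4 with FTY720 and at 15.3, 13.5, 15.4 and 13.4 CPM in the placebo mice. The groups did not overlap, the lowest FTY720 mice being F1-622 and F1-624. Its log2 fold change was 0.43 (SE 0.14, unadjusted p = 0.00734), with an exact permutation p of 0.00952. In the digit 3 mice the FTY720 values were 20.4, 23.2 and 21.0 CPM and the placebo values 15.3, 15.4 and 13.4 CPM, a log2 fold change of 0.56 (SE 0.13, unadjusted p = 0.00201). Podxl, the sialomucin podocalyxin of the luminal membrane, was at 27.8 to 35.5 CPM with a median of 31.2 and at 20.3, 22.0, 26.7 and 26.3 CPM. It too had no overlap, and its log2 fold change was 0.39 (SE 0.12, unadjusted p = 0.00743), exact permutation p 0.00952. Within the digit 3 it was 0.41 (SE 0.15, unadjusted p = 0.0242), and there the unadjusted p was 0.0552 with the leading digit of the mouse number as a covariate and 0.0705 to 0.0949 without F3-609, F3-612 or P3-612. Pecam1 and Podxl passed in all 10 mice in each of the 11 other settings and without any 1 mouse.

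Ly6c1 was at 24.4 to 37.4 CPM with a median of 31.6 with FTY720 and at 24.8, 24.1, 18.6 and 23.8 CPM with placebo, in the order P3-612, P1-623, P3-904 and P3-907. F1-624 alone fell below the highest placebo mouse, P3-612, and P3-904 stood well below the other placebo mice. The log2 fold change was 0.46 (SE 0.14, unadjusted p = 0.00559), exact permutation p 0.0143, and it passed in all 11 other settings and without any 1 mouse (0.38 without P3-904). Ly6c1 shares 19% of its 75-base words with Ly6c2 and Ly6a, so its count could hold reads of these. Ly6a had a similar size of difference, 0.43 (SE 0.21, unadjusted p = 0.0574), which did not pass, with 15.5 to 30.0 CPM with a median of 20.3 against 20.0, 14.5, 10.5 and 17.8 CPM.

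The adhesion G protein-coupled receptors Adgrl4 (ELTD1) and Adgrf5 (GPR116) were both higher with FTY720. Adgrl4 was at 16.8 to 29.6 CPM with a median of 19.7 and at 17.8, 9.87, 15.9 and 14.3 CPM in the placebo mice. F1-622 and F3-908 lay just below P3-612, and the log2 fold change was 0.53 (SE 0.19, unadjusted p = 0.0179), exact permutation p 0.0286. Without P1-623, the lowest mouse, the unadjusted p was 0.0590 (edgeR). Adgrf5 was at 18.5, 34.7 and 33.8 CPM in F1-622, F1-624 and F1-918, at 43.1, 39.6 and 31.1 CPM in F3-609, F3-612 and F3-908, and at 17.9, 26.7, 26.9 and 22.0 CPM in the placebo mice. F1-622 lay among the placebo mice, whereas the other 5 FTY720 mice lay above all 4. The log2 fold change was 0.52 (SE 0.21, unadjusted p = 0.0281), exact permutation p 0.0810, and without F3-609, F3-612, P3-612 or P3-907 the unadjusted p was 0.0556 to 0.0907. Among the digit 3 mice, where F1-622 is not included, it was 0.78 (SE 0.18, unadjusted p = 0.00185) and passed without any 1 of the 6 mice. For Adgrl4 the digit 3 value was 0.52 (SE 0.20, unadjusted p = 0.0295), which did not hold with the leading digit of the mouse number as a covariate (0.37, unadjusted p = 0.0839), with limma on log2(FPKM + 1) (unadjusted p = 0.0511) or after removal of GC content and gene length trends (unadjusted p = 0.0580). Its unadjusted p was 0.1002 to 0.139 without F3-609 or P3-907 (edgeR), and the log2 fold change was 0.28 without F3-609.

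Cdh5 was at 7.64 to 14.3 CPM with a median of 10.3 with FTY720 and at 6.88, 6.67, 9.28 and 10.4 CPM with placebo. The groups overlapped, with F1-622, F1-624 and F3-908 below P3-907, and the log2 fold changes of 0.37 (SE 0.21, unadjusted p = 0.0996) in all mice and 0.46 (SE 0.22, unadjusted p = 0.0613) in the digit 3 mice did not pass. In all mice Cdh5 passed with the digit as a covariate (0.46, unadjusted p = 0.0211) and without F1-622 or P3-907 (unadjusted p of 0.0399 and 0.0494, edgeR). In the digit 3 mice it passed without F3-908 or P3-907 (0.0146 and 0.0433), with no filter on low counts (0.0214) and after removal of GC content and gene length trends (0.0375). Itm2a, the most abundant member, was at 42.1 to 60.8 CPM with a median of 52.1 against 60.9, 44.7, 38.4 and 49.4 CPM, with the highest mouse of all, P3-612, in the placebo group. Its log2 fold change was 0.11 (SE 0.15, unadjusted p = 0.502). The other surface proteins ranged from -0.10 for Clec14a, a C-type lectin-like receptor that binds Mmrn2, to 0.18 for Emcn, the sialomucin endomucin. Between them lay the junctional immunoglobulin protein Esam (0.00), the tetraspan protein Tm4sf1 (0.10) and the sialomucin Cd34 (0.13), none of which passed.

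**Figure D3:**
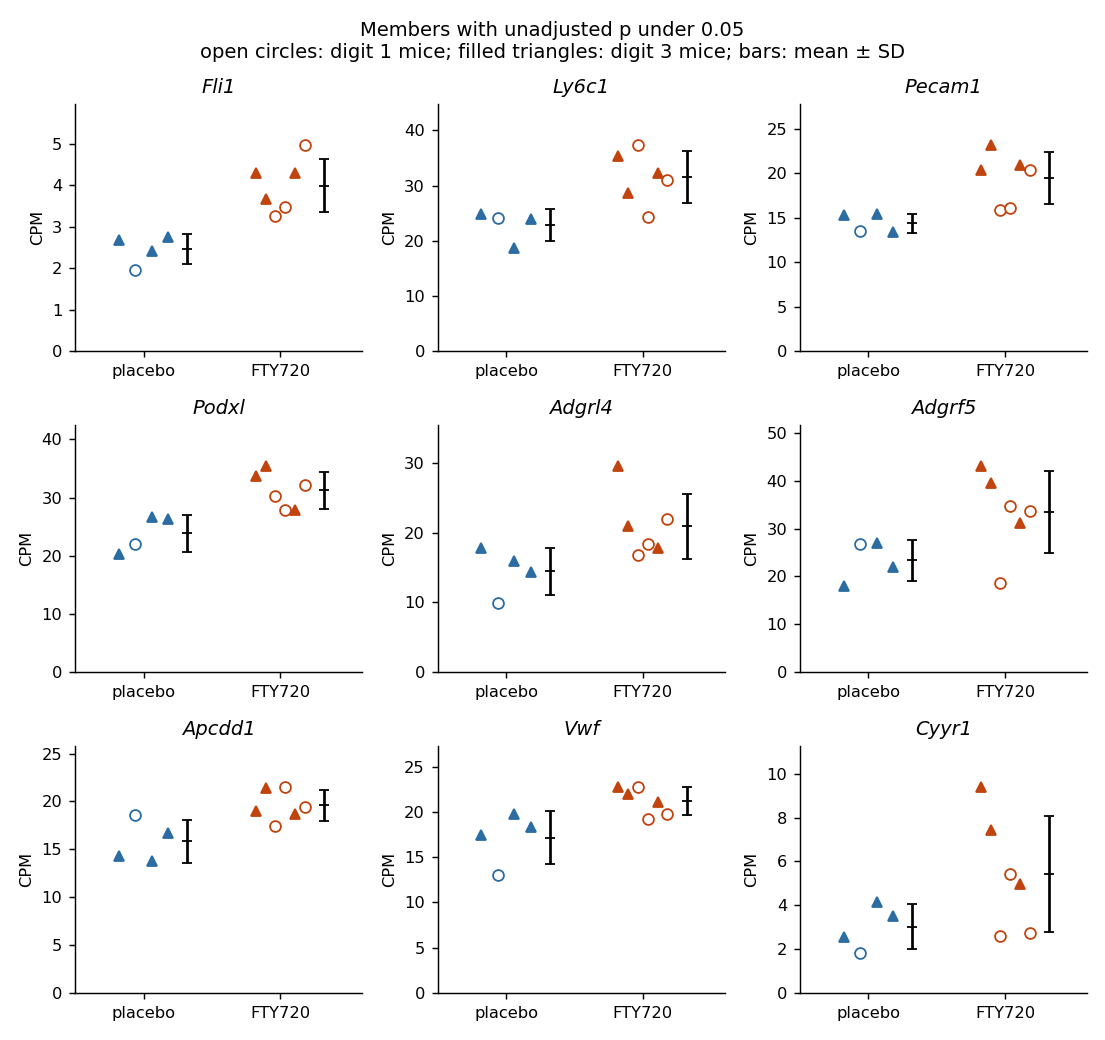
CPM of the 9 genes with an unadjusted p under 0.05 in each mouse, from 0 upwards, placebo in blue and FTY720 in red, open circles for digit 1 and filled triangles for digit 3 mice, with mean ± SD bars. Fli1, Pecam1 and Podxl show no overlap between groups, and for Adgrf5 and Cyyr1 the FTY720 points within the placebo range are digit 1 mice.

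Of the 9 receptors and signaling proteins 1 was higher, with a median log2 fold change of 0.21. Apcdd1, a membrane-bound Wnt inhibitor that is itself a Wnt target, was at 17.4 to 21.5 CPM with a median of 19.2 with FTY720 and at 14.3, 18.6, 13.8 and 16.7 CPM with placebo. F1-622 alone lay below P1-623, the highest placebo mouse. The log2 fold change was 0.31 (SE 0.12, unadjusted p = 0.0282), exact permutation p 0.00952, and 0.41 (SE 0.14, unadjusted p = 0.0153) in the digit 3 mice. Without F1-624, F3-612, P3-612 or P3-904 its unadjusted p was 0.0531 to 0.0879 in all mice, and without F3-612 it was 0.0641 in the digit 3 mice. The BMP9 and BMP10 receptors Eng and Acvrl1 (ALK1) had log2 fold changes of 0.21 and 0.11. Ptprb, the phosphatase VE-PTP that acts on Tie2 and VE-cadherin, had 0.24 in all mice and 0.43 in the digit 3 mice, and the orphan receptor Tie1 had -0.11 and 0.14. Robo4, a roundabout receptor of ECs, had 0.22, and the endothelial nitric oxide synthase Nos3 had 0.23. Ramp2, the partner of the adrenomedullin receptor, had 0.21, and Rasip1, a Ras-interacting protein of vessel lumen formation, 0.12. None of these 8 passed in either comparison.

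Of the 4 secreted proteins, Vwf was higher in all mice, and the median was 0.11. Vwf, the clotting glycoprotein stored in ECs, was at 19.2 to 22.8 CPM with a median of 21.5 with FTY720 and at 17.4, 13.1, 19.8 and 18.4 CPM with placebo, where P1-623 was lowest. F1-624 and F1-918 lay just below P3-904. The log2 fold change was 0.31 (SE 0.13, unadjusted p = 0.0357), exact permutation p 0.0143, and 0.25 (SE 0.12, unadjusted p = 0.0674) in the digit 3 mice, where it passed only after removal of GC content and gene length trends among the settings run (unadjusted p = 0.0315). The call in all mice held in 4 of the 10 refits that left out 1 mouse. Without F1-622, F3-609, F3-612, F3-908, P3-612 or P1-623 the unadjusted p was 0.0515 to 0.114 (edgeR). It was largest without P1-623, where the log2 fold change was 0.20. Egfl7, a secreted vessel protein, had -0.15, the matrix protein Mmrn2 0.15 and the protease inhibitor Ctla2a 0.06, none of which passed.

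Cyyr1, a cysteine- and tyrosine-rich membrane protein, had the largest log2 fold change of the 37 genes. Its FTY720 values were 2.62, 5.41 and 2.75 CPM in F1-622, F1-624 and F1-918 and 9.40, 7.43 and 4.95 CPM in F3-609, F3-612 and F3-908, and its placebo values 2.55, 1.83, 4.15 and 3.51 CPM. F1-622 and F1-918 lay among the placebo mice. The log2 fold change was 0.85 (SE 0.37, unadjusted p = 0.0421), exact permutation p 0.129, and 1.10 (SE 0.28, unadjusted p = 0.00336) in the digit 3 mice, a fold of 2.14. In all mice the call held in 3 of the 10 refits without 1 mouse. Without F1-624, F3-609, F3-612, F3-908, P3-612, P1-623 or P3-907 the unadjusted p was 0.0536 to 0.112. Cyyr1 overlaps Gm2541 on the same strand (17.6 counts per mouse on average), and its own counts were 28 to 158 per mouse. Palmd, the cytosolic protein palmdelphin, had 0.30 and did not pass.

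In the digit 1 mice, where P1-623 was the only placebo mouse and the treatment was not tested within the digit alone, all 3 FTY720 mice lay above P1-623 in 13 of the 37 genes, against 23.3% of all genes. The interaction of treatment and digit, in a fit that pools the spread over all mice because 1 mouse holds the digit 1 placebo group, called 0 of the 37 genes in either direction at an unadjusted p under 0.05 (edgeR), against 0.877% of all genes higher and 1.08% lower, and no gene had an adjusted p under 0.05 (345 at an unadjusted p under 0.05). The median interaction of the 37 genes was -0.00554 on the log2 scale, with a range from -0.50 (Sox17) to 0.67 (Tal1).

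Promoter sequences are shown for 3 of the genes that were higher with FTY720, those with a RefSeq promoter close to the deposited gene's start. RefSeq promoters (GRCm38.p6) matched 18 of the 37 genes, and only the 250 bases before the start were searched, on both strands. The core of ETS sites, searched as CCGGAA or CAGGAA, was found in 12 of the 18 and in 35.1% of all 32851 promoters in the table. The others were rarer: AACAAT for SOX factors in 2 of 18 (9.42% of all), CTTTGA for TCF/LEF factors in 3 of 18 (13.8%) and AGATAA for GATA factors in 3 of 18 (9.99%). None of these strings contains another, although neighbouring matches can overlap by a few bases. Of the 9 genes above, Ly6c1, Adgrl4, Adgrf5 and Cyyr1 were matched, and for Cyyr1 the RefSeq start lies 3024 bases from the deposited gene's start, so it is not printed. Each sequence runs 5′ to 3′ on the gene's strand and ends at the base before the start, with ETS letters (or their reverse complement) in capitals.
Ly6c1, chr15:75048838-75049087, minus strand, no ETS match: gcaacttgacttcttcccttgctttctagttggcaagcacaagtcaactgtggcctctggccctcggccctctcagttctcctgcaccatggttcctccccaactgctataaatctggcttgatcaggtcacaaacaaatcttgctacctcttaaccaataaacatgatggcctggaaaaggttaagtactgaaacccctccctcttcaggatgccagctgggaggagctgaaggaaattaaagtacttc
Adgrl4, chr3:151437632-151437881, plus strand, 1 ETS match: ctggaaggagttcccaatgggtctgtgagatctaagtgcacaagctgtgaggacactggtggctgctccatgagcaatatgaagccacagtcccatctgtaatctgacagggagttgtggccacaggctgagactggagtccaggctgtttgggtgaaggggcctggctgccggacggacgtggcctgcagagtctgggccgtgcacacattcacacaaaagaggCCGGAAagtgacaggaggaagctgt
Adgrf5, chr17:43360181-43360430, plus strand, 2 ETS matches on opposite strands: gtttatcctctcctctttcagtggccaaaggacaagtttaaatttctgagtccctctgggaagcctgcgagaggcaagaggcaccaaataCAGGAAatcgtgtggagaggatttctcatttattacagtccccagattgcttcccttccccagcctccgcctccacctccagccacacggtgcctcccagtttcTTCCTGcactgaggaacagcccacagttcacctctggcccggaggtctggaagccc
A match describes letters and not a bound site, and the missing match in Ly6c1 says only that these letters are not in its window. Erg itself had no match for any of the 4 motifs in its window.

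The 37 genes were also compared between the digits. Between 6 digit 3 and 4 digit 1 mice, with treatment as a covariate, 1 of the 37 genes (Cyyr1) was higher and 0 were lower at an adjusted p under 0.05, where 13.9% of all genes were higher and 14.4% lower with the digit 3. At an unadjusted p under 0.05, 7 were higher and 3 lower, where 20% of all genes were higher and 21.4% lower. For the 37 genes the median log2 difference was 0.12 against -0.0107 over all genes, and 21 of the 37 were above 0 (49.1% of all genes). The median was -0.050 without F1-624, 0.025 without F3-609 and 0.0146 without the treatment covariate. Without any 1 mouse 0 to 4 of the 37 genes were higher at an adjusted p under 0.05, where 7.03% to 16.7% of all genes were. The count of 4 came without F3-908, where 13.9% of all genes were higher. Cyyr1 was at 5.33 ± 2.59 CPM (SD, n = 6) with the digit 3 and 3.15 ± 1.56 CPM (SD, n = 4) with the digit 1, a log2 fold change of 0.97 (SE 0.27, adjusted p = 0.0173, edgeR). Its ranges overlapped, 2.55 to 9.40 against 1.83 to 5.41 CPM, and the adjusted p was 0.0558 to 0.0654 without F1-918, F3-609 or P1-623 and 0.154 without the treatment covariate (edgeR). The 6 others higher with the digit 3 at an unadjusted p under 0.05 were Ets1, Tal1, Cdh5, Clec14a, Adgrl4 and Ptprb, with log2 fold changes of 0.31 to 0.55, and the 3 lower were Acvrl1 (-0.33), Ramp2 (-0.39) and Egfl7 (-0.40). Clec14a was at 3.46 to 5.08 CPM in digit 3 mice and 2.87 to 3.40 CPM in digit 1 mice, with an adjusted p of 0.0701 (edgeR). How many of all genes likewise lacked overlap between the digits was not counted.

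**Figure D4:**
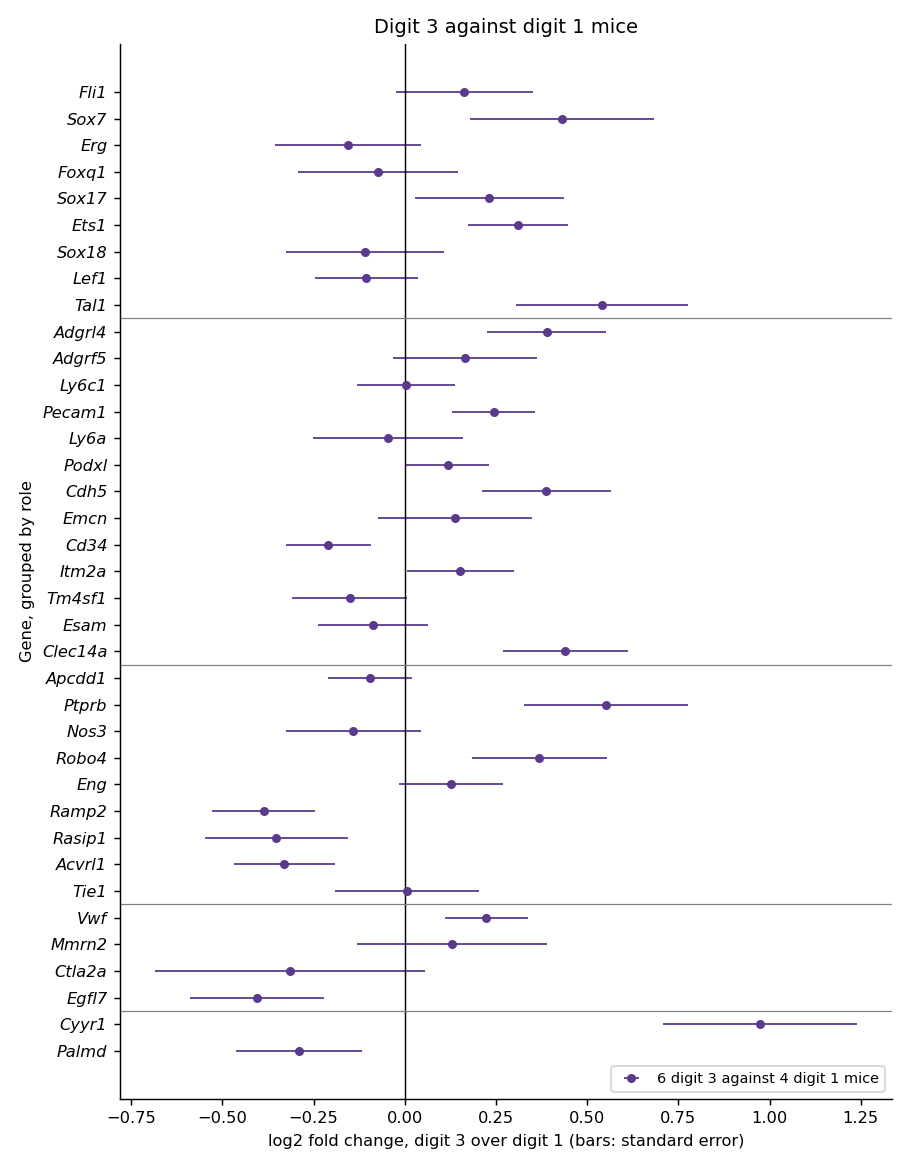
Log2 fold changes of digit 3 over digit 1 mice for the 37 genes, with bars of 1 standard error, in the gene order of the treatment plot. Points lie on both sides of 0 (21 above), with Cyyr1 at 0.97 and Egfl7 lowest at -0.40.

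Beyond the 37 genes, a list of 30 other endothelial genes (mostly junction, transport, caveolar, leukocyte adhesion and VEGF-angiopoietin genes) had 28 tested, of which 6 were higher and 0 lower with FTY720 at an unadjusted p under 0.05, with a median log2 fold change of 0.19. Over all genes tested, 1.04% were higher and 1.57% lower at that threshold. The 6 were the transporters Slco1a4 (0.61 (SE 0.25, unadjusted p = 0.0300)), Abcb1a (0.51), Abcg2 (0.42), Slc7a5 (0.28) and Mfsd2a (0.36), and the caveolar protein Cav2 (0.26). Of the 28 genes 20 were above 0, and the others reached down to -0.21, with the endothelial marker Cldn5 at -0.19. In the digit 3 mice 6 were higher as well, with a median of 0.21, where 2.78% of all genes were higher and 4.49% lower. There the VEGF receptor Flt1 (0.61) and the angiopoietin receptor Tek (0.52) passed while Mfsd2a and Cav2 did not. In these mice 21 of the 28 genes were above 0, and the others reached down to -0.37, with Cldn5 at -0.30. Sele and Selp had 0 counts in some mice and were not tested. The Wnt/β-catenin genes of brain endothelium, 18 of 18 tested, had 0 calls in either direction in all mice, with a median of 0.03. In the digit 3 mice 2 were higher, the receptor Fzd4 (0.49) and the Wnt7 co-receptor Reck (0.40), and 2 were lower, the ligand Wnt7b (-0.39) and the feedback inhibitor Nkd1 (-0.35), with a median of -0.02. Arterial genes (9 of 10 tested, median 0.05) and venous genes (5 of 5 tested, median 0.10) had 0 calls in all mice and in the digit 3 mice.

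Mural cells, the pericytes and smooth muscle that wrap the same vessels, had 14 of 16 genes tested with a median of -0.09, and the pericyte gene Rgs5 was the only one that passed, at 0.54 (SE 0.14, unadjusted p = 0.00195). Among digit 3 mice Rgs5 (0.64), the pericyte receptor Pdgfrb (0.30) and the smooth muscle myosin Myh11 (0.89) were higher, with a median of -0.03. The summed mural level was 194 to 245 CPM with FTY720 and 199 to 239 CPM with placebo, overlapping between groups. Of 7 oligodendrocyte genes 3 were lower in all mice, Mbp (-0.29), Mag (-0.46) and Cnp (-0.35), and the same 3 passed in the digit 3 mice. Their summed level was 5611 to 6528 CPM with FTY720 and 6387 to 7438 CPM with placebo, and its part in the endothelial values was not tested. Astrocyte (8 of 8 tested, 0 calls), neuron (8 of 8, 0 calls), microglia (9 of 9, 0 calls) and choroid plexus genes (6 of 6, 0 calls) did not pass in all mice, and of 8 perivascular fibroblast genes 1 was lower, Slc6a13 (-0.35 (SE 0.16, unadjusted p = 0.0481)). In the digit 3 mice the microglia genes Tmem119 (-0.80) and C1qa (-0.76) and the neuron genes Rbfox3 (-0.28) and Tubb3 (-0.34) were lower, the cerebellar granule cell genes Cbln3 (0.28) and Neurod1 (0.28) were higher, and 0 astrocyte, choroid plexus or fibroblast genes passed. Red cell genes, which would mark blood left in the vessels, had 4 of 5 tested and 0 calls, with a summed level of 3.63 to 17.6 CPM with FTY720 and 2.97 to 40.1 CPM with placebo. Platelet genes, which share Vwf, had 2 of 5 tested and 0 calls, with Gp1bb at 0 in every mouse. T cell genes had 3 of 8 tested and 0 calls, with Cd3e, Cd3d, Cd3g, Cd8a and Cd2 at 0 in some mice.

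Between the digits, all 9 microglia genes were lower with the digit 3 at an unadjusted p under 0.05, 7 of them at an adjusted p under 0.05, and their summed level was 260.4 to 378 CPM against 382 to 494 CPM with the digit 1. All 6 cerebellar granule cell genes were higher with the digit 3 at an adjusted p under 0.05, with a median log2 fold change of 3.06 and a summed level of 945 to 1047 CPM against 110.5 to 128 CPM. The part of these lists in the digit values of the endothelial genes was not tested. The summed level of the 37 genes was 424 to 591 CPM in digit 3 mice and 451 to 559 CPM in digit 1 mice, so it did not separate the digits.

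**Figure D5:**
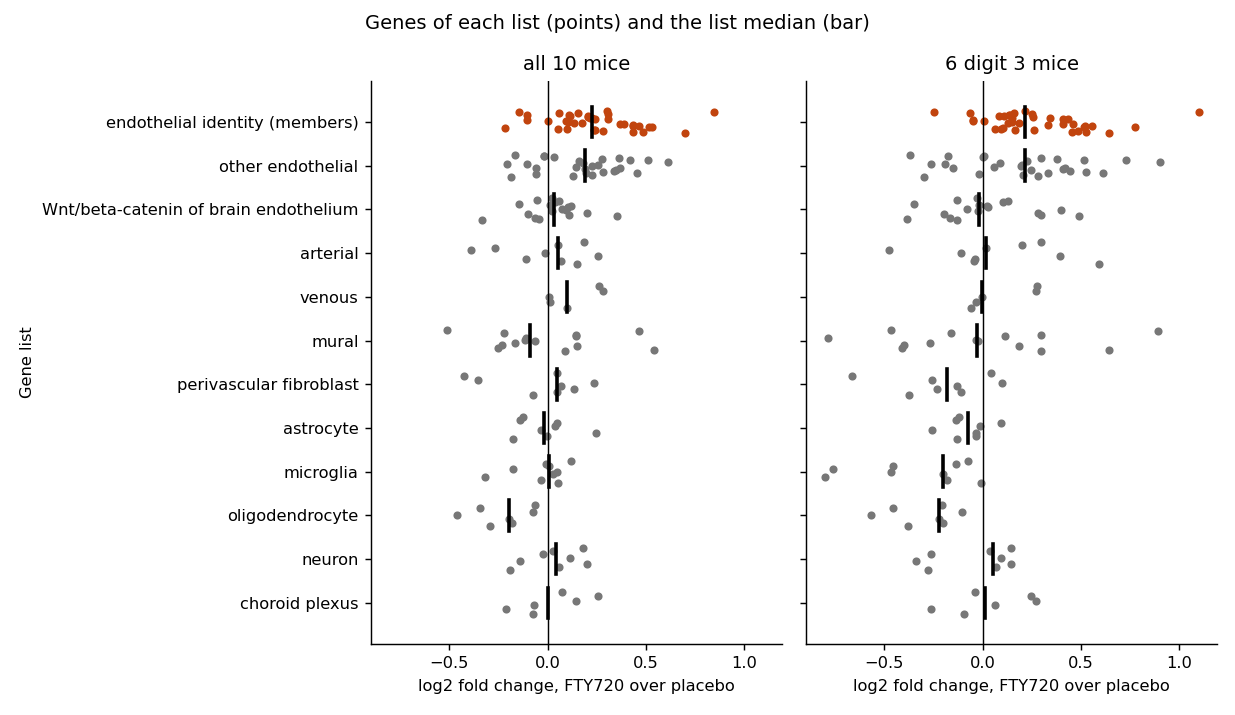
Log2 fold changes of FTY720 over placebo in all 10 mice (left) and the 6 digit 3 mice (right) for the genes of 12 lists, 1 point a gene, with a bar at each list's median. The medians of the endothelial identity genes (red, 0.23 and 0.21) and of the other endothelial genes (0.19 and 0.21) lie right of 0, and that of the oligodendrocyte genes (-0.19 and -0.22) left of it.

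Some counts could hold reads of neighbouring or similar genes, since the sources used here do not give the strand setting of the counting. Foxq1 shares 65.5% of its 75-base words with A530084C06Rik, which had 0 counts, Rasip1 30.1% with 3 overlapping genes, Ramp2 29.5% with Vps25 (12 counts per mouse on average), and Nos3 14.5% with Atg9b and Gm15587, of which Atg9b had 114.4 counts per mouse on average. Ctla2a shares 16% with Ctla2b and others, Eng overlaps Fpgs (146.3 counts) on the other strand, and Fli1, Podxl, Adgrl4, Adgrf5 and Apcdd1 share no such word and overlap no exon of another gene. The precision of low genes is limited by counting, since Sox7, Ctla2a and Tal1 had as few as 12, 18 and 23 counts in a mouse.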

How the data were processed

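Brain total RNA of 10 mice was sequenced. The authors called bases with Casava and used Hisat2 to align the paired-end reads to the GRCm38 genome, and the submitters' processing notes also name fastp and featureCounts 1.5.0-p3. The strand setting and annotation release are not given in the sources used here. The authors deposited raw counts per gene and mouse and a second table of FPKM values, in which each count is scaled by gene length and 1 total per mouse. Mice were grouped by the treatment in their labels.

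Genes were filtered with filterByExpr, normalized by TMM and tested over the whole table with edgeR 4.0.16 (quasi-likelihood; R 4.3.3), with Benjamini-Hochberg adjustment over all genes tested. CPM values use TMM library sizes. The SE of a log2 fold change was derived from the F statistic (the fold change over the root of F). Exact permutation tests were two-sided, on mean log2 CPM (prior count 2), over 210 splits, without regard to the digit. The pipeline was tested on simulated data. FPKM values served for levels between genes. Alternatives included DESeq2 1.42.0, limma-voom and limma 3.58.1 on log2(FPKM + 0.1) and log2(FPKM + 1). Promoters were RefSeq's (GRCm38.p6).

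All 37 genes were accounted for. Full values were given for those with an unadjusted p under 0.05 in a treatment comparison, the 3 highest by FPKM, those with an adjusted p under 0.05 between digits, and Pecam1, Cdh5, Erg and Fli1. Genes outside the 37 were named from the lists, if past that threshold in a treatment comparison or as a list's marker. Members, lists and tests were chosen with earlier results of these data known.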

Additional observations from a re-analysis of the deposited data

Results flagged for a closer look

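In 6 of 74 groups tested (37 genes in FTY720 and in placebo mice), the highest or lowest mouse lay further from the rest than Dixon's 95% limit allows, where chance alone would mark about 1 in 20 groups. In the placebo mice, P3-904 was lowest for Ly6c1 at 18.6 CPM, with the other 3 at 23.8 to 24.8 CPM, and for Ctla2a at 1.04 CPM, with the others at 2.42 to 2.67 CPM. P1-623 was highest for Palmd at 10.9 CPM, with the others at 9.08 to 9.13 CPM. Among the FTY720 mice, F1-622 was highest for Tm4sf1 at 20.4 CPM, with the other 5 at 13.3 to 15.1 CPM, and lowest for Ptprb at 13.3 CPM, with the others at 28.1 to 39.5 CPM. F1-918 was highest for Acvrl1 at 15.2 CPM, with the others at 9.88 to 11.4 CPM. Of these 6 genes only Ly6c1 was higher with FTY720 at an unadjusted p under 0.05, and its log2 fold change was 0.38 without P3-904.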

How the results depend on the processing

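In all mice, the count of genes higher with FTY720 stayed between 7 and 13 in the 11 other settings. Of all genes, 0.815% to 4.98% were higher there. Without any 1 mouse the count stayed between 6 and 10, where 0.628% to 2.48% of all genes were higher. In the digit 3 mice it stayed between 6 and 12 in the 10 other settings, where 1.41% to 2.8% of all genes were higher. In all of these 0 of the 37 genes were lower. Fli1, Pecam1, Podxl and Ly6c1 passed in all mice in every setting run. Adgrf5 did not with log2(FPKM + 0.1), Vwf not with log2(FPKM + 0.1) or log2(FPKM + 1), and Cyyr1 not with limma-voom, either FPKM scale or the leading digit of the mouse number as a covariate. With the digit as a covariate 12 of the 37 genes were higher, Cdh5 among them (unadjusted p = 0.0211, edgeR), beside 880 genes higher and 1376 lower in all. Removing GC content and gene length trends, chosen after the data were seen, gave 255 higher and 167 lower in all and moved the split between the digits from 2462 and 2548 to 1713 and 2989.

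The median log2 fold change in all mice was 0.13 with log2(FPKM + 1) and 0.33 after GC content and length trends were removed, and 0.32 after that removal in the digit 3 mice. Without any 1 mouse the digit 3 count of higher genes ranged from 6 to 13 and its median from 0.18 to 0.36, while the share of all genes higher ran from 0.806% (without P3-907) to 9.52% (without P3-904). Between the digits, 2 genes were higher and 1 lower with DESeq2 and with no filter on low counts, 2 were lower after GC content and length removal, and without the treatment covariate 0 were higher, 1 was lower and the median was 0.0146. Of all genes, 16% were higher with DESeq2, 7.19% with no filter, 9.71% after GC content and length removal and 11% without the treatment covariate. In the same order 2892, 2978, 2989 and 1745 genes were lower. Without any 1 mouse 0 to 4 were higher and 0 to 2 lower, where 7.03% to 16.7% of all genes were higher and 1323 to 3075 genes lower. The median ran from -0.050 (without F1-624) to 0.16, and was 0.025 without F3-609. The interaction gave 0 to 1 gene in each direction and medians from -0.10 to 0.095 in the 9 refits without 1 mouse other than P1-623, the only digit 1 placebo mouse, without which it could not be fitted. A refit left with 1 mouse in a group assumes that it varies like the others, and the cause of each shift was not tested. No paired analysis was possible because the groups share only 1 mouse number, 612.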
